A study of Danio rerio with 6 samples.

Results

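A set of 6 genes that mark endothelial and endocardial cells was followed in zebrafish ventricular apexes collected 7 days post-cryoinjury (dpci), out of 32520 genes in the deposited table. They are *fli1a* (ENSDARG00000054632), *cdh5* (ENSDARG00000075549), *tie1* (ENSDARG00000004105), *tek* (ENSDARG00000028663), *pecam1* (ENSDARG00000060263) and *vcam1b* (ENSDARG00000062479), and all 6 passed the filter on low counts. The first 4 were chosen by their identifiers as cell type markers. *pecam1* and *vcam1b* were found by symbol in a gene list of the study that is limited here to genes with small *P*-values in the same contrast, and *tie1* occurs in that list as well. Their *p*-values are therefore given as a description.

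RNA came from adult fish of the AB strain, a wild-type laboratory line, all of them cryoinjured, and the group labelled WT was *mdka* +/+. The group labelled KO carried *mdka* cn105, a CRISPR/Cas9 allele of *midkine-a*, which encodes a secreted cytokine, and the allele is present in every cell of the fish and not only in endothelium. Knockouts and controls descended from crosses of the same fish, each library is a pool of 3 apexes, and 3 pools were sequenced per genotype (replicates 2, 3 and 4 of *mdka* cn105, replicates 1, 2 and 4 of *mdka* +/+). The atrioventricular and aortic valves, which are lined by endocardium, had been removed, there was no uninjured group, and a single mutant allele was sequenced.

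The endothelium lines blood vessels, and the endocardium is the endothelial layer facing the lumen of the heart. *fli1a* encodes an ETS transcription factor of endothelial cells, and its regulatory sequence drives the reporter line with which endothelium is commonly labelled in zebrafish. *cdh5* encodes VE-cadherin, the adhesion molecule of endothelial junctions, *tie1* and *tek* encode the receptor tyrosine kinases of the angiopoietin pathway, and *pecam1* and *vcam1b* encode cell surface adhesion molecules of the immunoglobulin superfamily. In a regenerating zebrafish heart, endothelial and endocardial cells respond early to injury and vessels grow back into the damaged area.

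Libraries held between 18940128 and 25195457 RSEM expected counts. Values below are CPM (counts per 1000000, with TMM scaling of the libraries), and log2 fold changes compare *mdka* cn105 with *mdka* +/+ in edgeR's quasi-likelihood test, with their standard error (SE). A gene was called at an unadjusted *p* under 0.05, the threshold the study used, and adjustment was by Benjamini-Hochberg across 17879 tested genes. The targeted gene was lower in every *mdka* cn105 library, in the direction the labels give, and averaged 118 ± 31.4 CPM (SD, n = 3) there and 743 ± 320 CPM (SD, n = 3) in *mdka* +/+. At the unadjusted threshold 12.1% of all genes were called, 5.64% higher (1009 genes) and 6.42% lower (1148 genes) in *mdka* cn105. Scaling by total counts alone, in place of TMM, moved the median over all genes from -0.01 to 0.13 (log2 fold change) and gave 2081 higher and 501 lower genes. After adjustment 1 gene was called (0.00559%), which was not *mdka* (adjusted *p* = 0.0944, edgeR). The CPM of the genotypes did not overlap for 17.7% of genes.

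The 6 genes did not move as a block. In *mdka* cn105 apexes *tie1* was higher at 139% of the *mdka* +/+ level, *vcam1b* was lower at 68.5% and *pecam1* was lower at 77.5%. *cdh5* stood at 117%, *fli1a* at 103% and *tek* at 98.0% of the *mdka* +/+ level, and none of these 3 was called. The median log2 fold change of the 6 genes was 0.00, beside -0.01 for all genes tested. Of the 4 genes chosen by identifier, *tie1* was called, and 3 of all 6 were, beside the 12.1% of all genes. The 3 called genes all occur in the study's list of small *P*-values, so this share is a description. After adjustment edgeR and limma-voom called 0 of the 6, while DESeq2's Wald test called 2, *tie1* (adjusted *p* = 0.0471) and *vcam1b* (adjusted *p* = 0.00995). Of all 17879 tested genes DESeq2 called 445 after adjustment, edgeR 1 and limma-voom 2. In a bulk library, fewer cells of a type and less RNA per cell cannot be told apart.

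**Figure D1:**
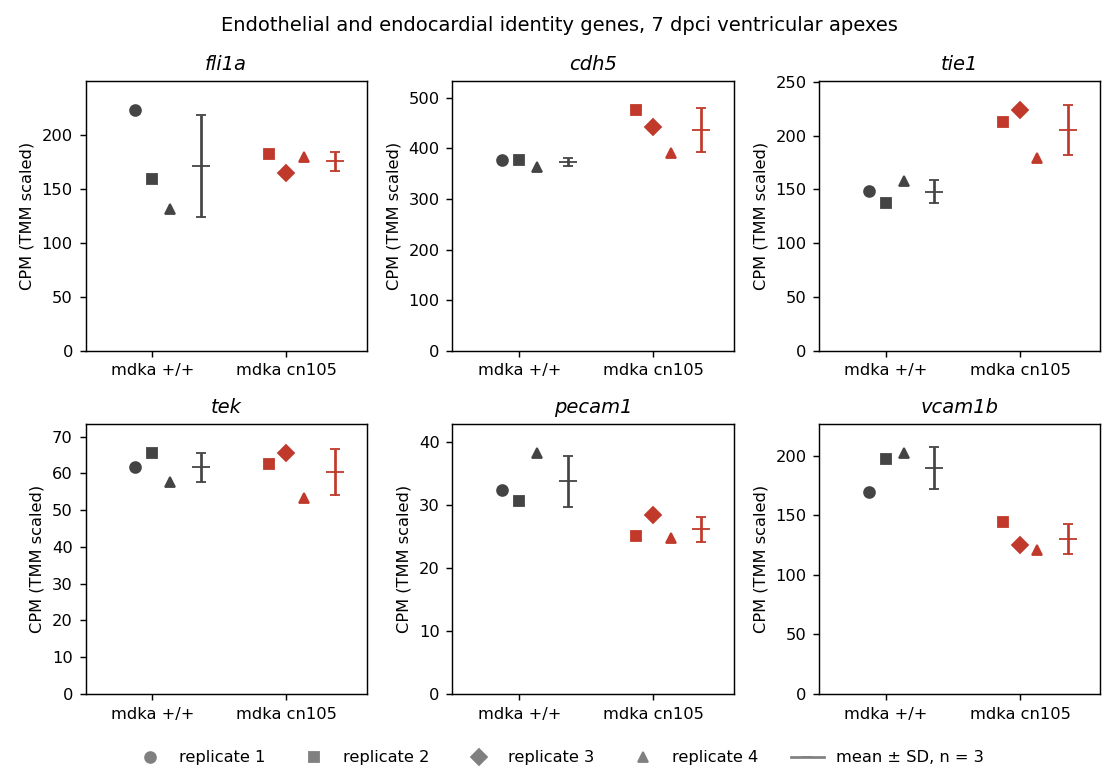
CPM (vertical axes, starting at 0) of the 6 genes in each library, with *mdka* +/+ in grey and *mdka* cn105 in red. Symbols mark replicate numbers and the bars beside them give the mean ± SD of 3 pools. The genotypes do not overlap for *cdh5*, *tie1*, *pecam1* and *vcam1b*, and they overlap for *fli1a* and *tek*. Of all tested genes 17.7% do not overlap. *tie1*, *pecam1* and *vcam1b* occur in the study's list of small *P*-values in the same contrast, so their separation is a description.

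*cdh5* had 476, 442 and 391 CPM in the *mdka* cn105 libraries (replicates 2, 3 and 4) and 377, 378 and 364 CPM in the *mdka* +/+ libraries (replicates 1, 2 and 4). Every *mdka* cn105 pool lay above every *mdka* +/+ pool. Spread differed between the genotypes, with a coefficient of variation of 9.84% in *mdka* cn105 and 2.2% in *mdka* +/+. The log2 fold change was 0.23 (SE 0.11, 95% interval -0.04 to 0.49), and edgeR's *p* was 0.0836 before adjustment and 0.501 after it. *cdh5* was called without *mdka* cn105 replicate 4 (log2 fold change 0.30) and when libraries were scaled by total counts only (0.36). In the gene order of the GRCz12tu assembly, *cdh5* is the only one of the 6 genes that shares a chromosome, chromosome 7, with *mdka*, so for *cdh5* a difference linked to the mutated allele cannot be told apart from an effect of losing *mdka*.

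*fli1a* had 182, 165 and 179 CPM in the *mdka* cn105 libraries and 223, 159 and 131 CPM in the *mdka* +/+ libraries. The *mdka* +/+ pools spanned the whole range and the *mdka* cn105 pools sat inside it. The coefficient of variation was 27.5% in *mdka* +/+ and 5.19% in *mdka* cn105, while counting error at the lowest count of 2495 is 2.0%. Between genotypes the log2 fold change was 0.04 (SE 0.19), and its 95% interval of -0.41 to 0.48 allows a decrease of up to 24.5% or an increase of up to 39.4%. Single libraries moved this value. Without *mdka* +/+ replicate 1, the highest pool, the log2 fold change was 0.27, not called, and without *mdka* +/+ replicate 4, the lowest, it was -0.12.

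*tie1* had 213, 224 and 179 CPM in the *mdka* cn105 libraries and 149, 137 and 158 CPM in the *mdka* +/+ libraries. The lowest *mdka* cn105 pool was above the highest *mdka* +/+ pool, and replicate 4 came closest to the other genotype on either side. Means were 205 ± 23.4 CPM (SD, n = 3) and 148 ± 10.4 CPM (SD, n = 3). This corresponds to a log2 fold change of 0.47 (SE 0.13, 95% interval 0.18 to 0.76), for which edgeR's *p* was 0.0059 before adjustment and 0.227 after it. Among 17879 genes *tie1* ranked 465 by *p*. When single libraries were left out, its log2 fold change stayed between 0.40 and 0.56 and all 6 fits called it.

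*tek*, whose product is known as Tie2 and binds angiopoietins directly, had 62.5, 65.4 and 53.3 CPM in the *mdka* cn105 libraries against 61.8, 65.5 and 57.7 CPM in the *mdka* +/+ libraries. The genotypes overlapped almost completely. Its log2 fold change was -0.03 (SE 0.12) with a 95% interval of -0.30 to 0.24, which allows a decrease of up to 18.9% or an increase of up to 18.4%. In each library the ratio of *tie1* to *tek* counts does not depend on how libraries are scaled. The ratio was 3.40, 3.42 and 3.35 in *mdka* cn105 and 2.41, 2.09 and 2.73 in *mdka* +/+. All 3 *mdka* cn105 pools were higher and varied little. On the log2 scale the ratio was 0.50 higher in *mdka* cn105, with a two-sided exact permutation *p* of 0.1, the smallest that 3 pools against 3 allow. *tie1* alone did not overlap and *tek* hardly differed, so this ratio largely repeats the result for *tie1*. The ratio of *tek* to *cdh5* counts was lower in every *mdka* cn105 library, with 0.131, 0.148 and 0.136 against 0.164, 0.173 and 0.159. Ratios of *tie1* to *cdh5*, *pecam1* and *vcam1b* counts were higher in every *mdka* cn105 library. For *pecam1* and *vcam1b* this follows from *tie1* being higher and both of them lower without overlap, so it adds no separate result. That of *tie1* to *fli1a* overlapped between genotypes, with 1.17, 1.35 and 0.998 against 0.668, 0.861 and 1.2.

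The ligand genes *angpt1* and *angpt4* were lower in *mdka* cn105, where *tie1* was higher. In mammals Angiopoietin-1 activates Tek, and Tie1 acts as a co-receptor that does not bind angiopoietins strongly by itself. *angpt1* had 50.7, 60.5 and 55.2 CPM in *mdka* cn105 and 105, 69.3 and 74.8 CPM in *mdka* +/+ libraries, without overlap. In edgeR's test it fell, with a log2 fold change of -0.58 (SE 0.17, adjusted *p* = 0.253). The paralogous ligand gene *angpt4* had 19.4, 17.7 and 14.6 CPM against 25.6, 28.5 and 24.4 CPM, again without overlap, and a log2 fold change of -0.60 (SE 0.14, adjusted *p* = 0.213, edgeR). *angpt1* and *angpt4* were called in each of the 6 fits that left out a library.

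Of the 8 genes listed for the angiopoietin pathway, 5 could be matched to an identifier, and these 2 ligand genes were the ones called, both lower. The log2 fold changes of *ptprb*, which encodes the phosphatase that in mammals dephosphorylates Tek, and of *svep1*, whose secreted product acts with Tie1 in zebrafish lymphatic growth, were -0.21 (SE 0.16) and -0.17 (SE 0.12). *angpt2b* was too scarce to be read, with between 0.093 and 2.13 CPM and a log2 fold change of -0.42 in edgeR's test and 0.46 in limma-voom. Without *mdka* +/+ replicate 1 it was called as lower (-0.98). The 2 of 5 called stand beside 12.1% of all genes, and no median is drawn from so few genes. *ptprb*, *svep1* and *angpt2b* were named after their values were seen.

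**Figure D2:**
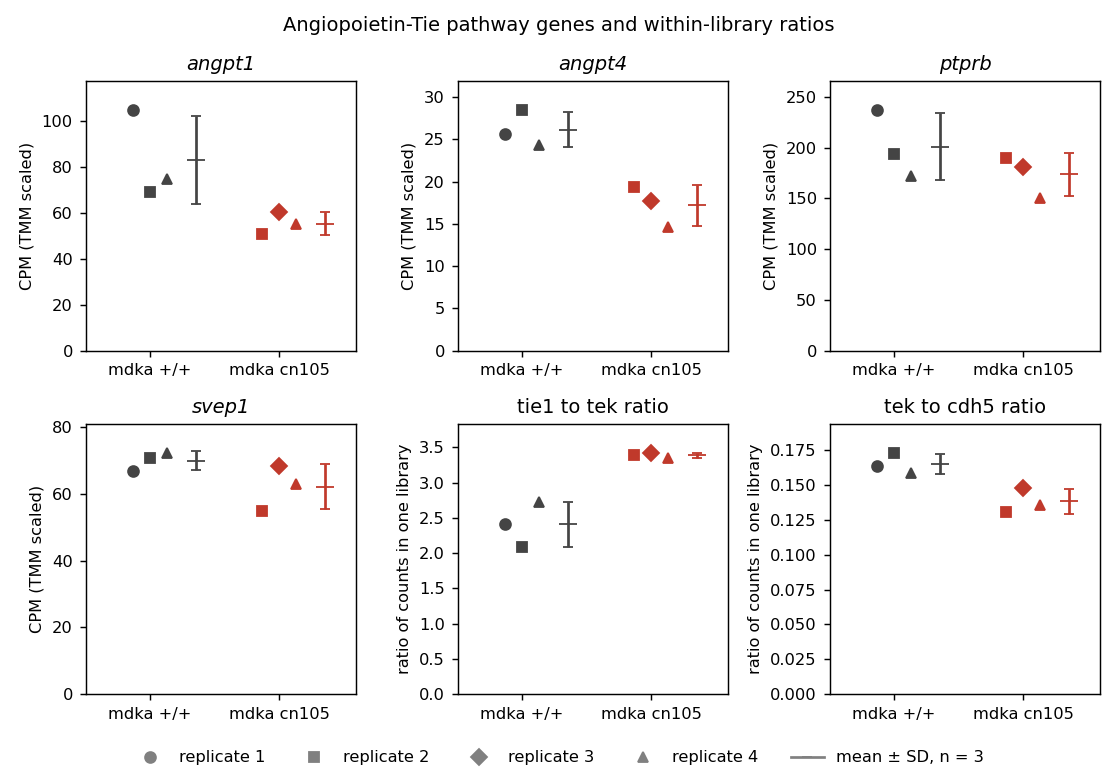
CPM of *angpt1*, *angpt4*, *ptprb* and *svep1* in each library, and the ratios of *tie1* to *tek* and of *tek* to *cdh5* counts within each library (vertical axes start at 0). Grey is *mdka* +/+, red is *mdka* cn105, symbols mark replicates, and bars give mean ± SD of 3 pools. The *tie1* to *tek* ratio lies between 3.35 and 3.42 in *mdka* cn105 and between 2.09 and 2.73 in *mdka* +/+.

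*vcam1b*, the ortholog of an adhesion molecule that on mammalian endothelium binds leukocyte integrins, had 144, 125 and 121 CPM in the *mdka* cn105 libraries and 169, 197 and 202 CPM in the *mdka* +/+ libraries. The highest *mdka* cn105 pool stayed below the lowest *mdka* +/+ pool. On the log2 scale the change was -0.55 (SE 0.12, 95% interval -0.83 to -0.26), and edgeR's *p* was 0.00256 before adjustment and 0.197 after it. It lay between -0.63 and -0.50 in the 6 fits that left out a library, each of which called the gene. Its paralog *vcam1a* had at most 0.371 CPM in any library, and how reads were divided between the paralogs was not tested.

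*pecam1*, whose mammalian ortholog CD31 sits at endothelial contacts and also on platelets and leukocytes, had 25.1, 28.4 and 24.8 CPM in the *mdka* cn105 libraries and 32.3, 30.6 and 38.2 CPM in the *mdka* +/+ libraries. The groups were separated by a narrow gap, from 28.4 to 30.6 CPM. Its log2 fold change was -0.37 (SE 0.13, 95% interval -0.67 to -0.07), and edgeR's *p* was 0.0218 before adjustment and 0.317 after it. It was the least abundant of the 6 genes in counts, with 497 to 725 per library, and counting error at the lowest count is 4.49%. The call was lost without *mdka* cn105 replicate 2 (log2 fold change -0.35), *mdka* cn105 replicate 4 (-0.34) or *mdka* +/+ replicate 4 (-0.27), and with scaling by total counts only (-0.23).

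Genes for leukocyte adhesion and integrins were set beside these molecules. Of 9 listed genes 4 were tested and 1 of the 4 was called, beside 12.1% of all genes. *sele*, which encodes the endothelial selectin that slows leukocytes, had 229, 101 and 137 CPM in *mdka* cn105 and 657, 706 and 98.9 CPM in *mdka* +/+ libraries. The *mdka* +/+ pools themselves differed, and replicate 4 was lower than any other library. For *sele* the log2 fold change was -1.64 (SE 0.65, adjusted *p* = 0.374, edgeR). The call was lost without *mdka* cn105 replicate 3 (-1.42) or 4 (-1.56) and without *mdka* +/+ replicate 1 (-1.37) or 2 (-1.28), and with limma-voom (-1.28). *itga4*, which encodes the alpha subunit of the integrin that binds Vcam1 in mammals, had 3.51, 3.34 and 3.09 CPM in *mdka* cn105 and 2.97, 1.76 and 1.63 CPM in *mdka* +/+ libraries. Its log2 fold change was 0.64 (SE 0.29) and it was not called. It was called as higher without *mdka* +/+ replicate 1 (0.96), with total counts only (0.78) and with limma-voom (0.67).

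Other genes of endothelial identity were examined to place the 6 genes. Of 40 listed pan-endothelial and endocardial genes, 32 could be matched and tested, and 5 of these were called (3 higher, 2 lower), a share of 15.6% beside 12.1% of all genes. Their median log2 fold change was -0.04, beside -0.01 for all genes. Without *mdka* cn105 replicate 3 the count was 3, beside 8.61% of all genes called in that fit, and without *mdka* +/+ replicate 4 it was 7, beside 15.1%. The ETS factor gene *erg* (log2 fold change 0.00, SE 0.20), the Vegf receptor gene *kdrl* (-0.30, SE 0.16) and the secreted factor gene *egfl7* (0.20, SE 0.12) were not called. With total counts only *egfl7* was called as higher (0.33), and without *mdka* cn105 replicate 2 *kdrl* was called as lower (-0.44). *kdrl* had 243, 206 and 169 CPM in *mdka* cn105 and 283, 254 and 223 CPM in *mdka* +/+ libraries, which overlap.

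The 3 pan-endothelial genes that were higher were *lmo2*, *tal1* and *vwf*, and all are also known from blood. *lmo2* and *tal1* encode transcription regulators of endothelial and erythroid progenitors, and *vwf* encodes von Willebrand factor, made by endothelium and, in mammals, by the megakaryocyte lineage. *lmo2* had 36.4, 28.5 and 33.4 CPM in *mdka* cn105 and 17.8, 22.4 and 19.7 CPM in *mdka* +/+ libraries (log2 fold change 0.72, SE 0.14). *tal1* had 47.6, 34.4 and 33.2 CPM against 17.1, 26.0 and 19.7 CPM (0.88, SE 0.20). *vwf* had 859, 811 and 638 CPM against 554, 371 and 421 CPM (0.78, SE 0.18). None of the 3 overlapped between genotypes, and each was called in all 6 fits that left out a library. The summed thrombocyte markers were higher in all *mdka* cn105 libraries, while the summed erythroid markers overlapped between genotypes although each of their 4 genes was called as higher. Their part in these 3 results was not tested.

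The genes that were lower were *sox18*, which encodes an endothelial SoxF transcription factor, and *spock3*, used as an endocardial marker in zebrafish. *sox18* had 15.4, 15.6 and 14.3 CPM in *mdka* cn105 and 22.4, 17.0 and 18.2 CPM in *mdka* +/+ libraries, a log2 fold change of -0.34 (SE 0.14). It lost its call in 4 of the 6 fits that left out a library, those without *mdka* +/+ replicate 1 (log2 fold change -0.22) or *mdka* cn105 replicate 2 (-0.37), 3 (-0.37) or 4 (-0.31). *sox18* was also not called with scaling by total counts only (-0.20) or by DESeq2 (-0.35). The log2 fold change of *spock3* was -0.32 (SE 0.13), without overlap between genotypes. Among the fits without a library it kept its call only in that without *mdka* cn105 replicate 2, and the others gave -0.35 to -0.23. With total counts only it was -0.18 and not called. The endocardial transcription factor genes *nfatc1* and *klf2a* were not called, at log2 fold changes of 0.43 (SE 0.36) and 0.19 (SE 0.25). *nfatc1* had 96.2, 56.2 and 30.0 CPM in the *mdka* +/+ libraries and 84.7, 82.2 and 79.1 CPM in *mdka* cn105, the same order of pools as *fli1a* within *mdka* +/+. Without *mdka* +/+ replicate 1, *nfatc1* was called as higher (log2 fold change 0.93).

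Genes of the Notch pathway and of arterial identity were tested because Notch signalling acts in endocardium and arteries. Of 16 listed genes 10 were tested, and *notch1a*, *notch1b* and *efnb2a* were among the 5 without a match. Of the 10, 3 were called and all 3 were lower. This share of 30.0% stands beside 12.1% of all genes called and 6.42% called as lower. The list was chosen with earlier results of these data known, so the share is a description. The median log2 fold change of the 10 genes was -0.24 beside -0.01 for all genes, and with total counts only it was -0.11 beside 0.13. *dll4*, the Notch ligand gene of arterial and sprouting endothelium, had 38.9, 35.8 and 38.1 CPM in *mdka* cn105 and 46.3, 53.7 and 46.5 CPM in *mdka* +/+ libraries (log2 fold change -0.38, SE 0.11, adjusted *p* = 0.245, edgeR). *dlc*, another Notch ligand gene, had 13.6, 10.6 and 7.52 CPM against 32.5, 23.5 and 15.5 CPM (-1.17, SE 0.31). The receptor gene *notch2* was at -0.25 (SE 0.10) and lost its call in 5 of the 6 fits that left out a library, all but that without *mdka* +/+ replicate 2. *dll4* and *dlc* kept theirs in all 6, but scaling by total counts only ended the calls of *dll4* (log2 fold change -0.24) and *notch2* (-0.11). Without the filter on low counts *notch2* was not called either (-0.25). All 10 genes had a negative log2 fold change with TMM, beside 9156 of all 17879 tested genes. Of the 10, 8 had one with total counts only, and 6 had one without *mdka* +/+ replicate 2. The share over all genes was not worked out for these other fits.

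Of 6 tested venous and lymphatic genes 0 were called in edgeR's test as described and by limma-voom, and 1 by DESeq2. Without the filter on low counts, or without *mdka* cn105 replicate 3, *mdka* +/+ replicate 2 or *mdka* +/+ replicate 4, edgeR called 1. Of 21 listed genes for endothelial junctions 12 were tested, and *cldn5a*, *cldn5b* and *esama* were among the 9 without a match. Of these 12 genes 1 was called, *tjp1b*, which encodes a scaffold protein of tight junctions. Its log2 fold change was -0.75 (SE 0.32), with overlapping genotypes (50.4, 45.2 and 41.9 CPM against 119, 67.0 and 44.7 CPM). Without *mdka* +/+ replicate 1 its log2 fold change was -0.28, and 5 of the 6 fits that left out a library, all but that without *mdka* +/+ replicate 4, did not call it. It was also not called with total counts only (-0.60) or limma-voom (-0.63). Among 6 tested ETS factor genes, the family of *fli1a*, *ets2* was called (log2 fold change 0.69, SE 0.22). Without *mdka* cn105 replicate 4 that call was lost (log2 fold change 0.52). Over all vascular lists together, 13 of 71 tested genes were called (4 higher, 9 lower), a share of 18.3% beside 12.1% of all genes. After adjustment edgeR and limma-voom called 0 of the 71 and DESeq2 called 5. Of all 17879 tested genes DESeq2 called 445 after adjustment, edgeR 1 and limma-voom 2.

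**Figure D3:**
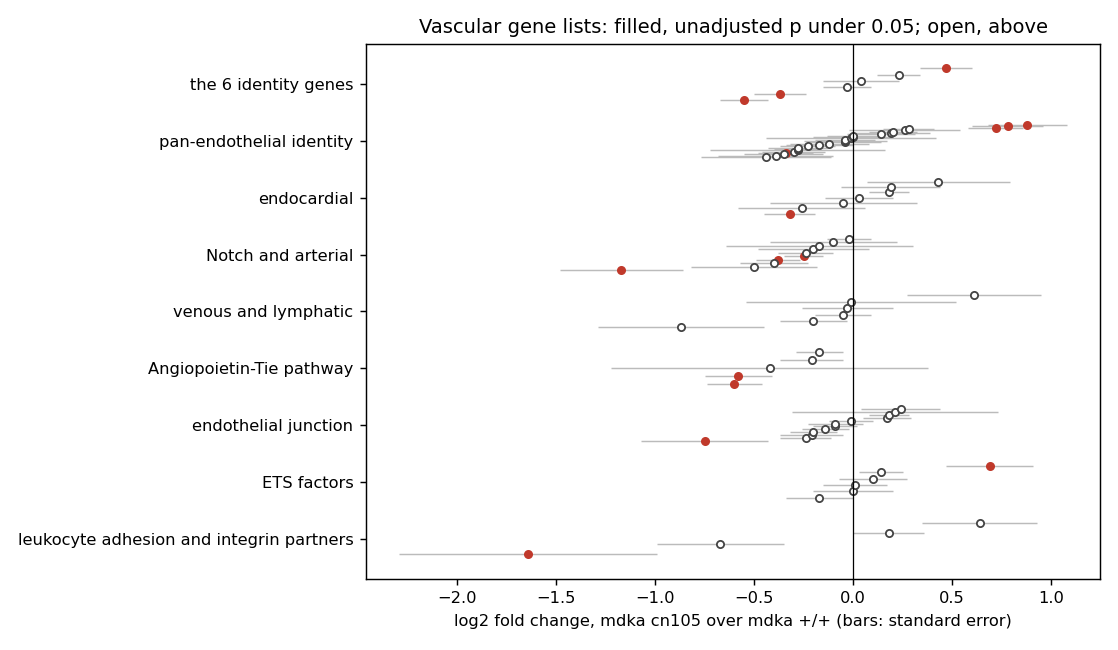
Log2 fold changes (horizontal axis, *mdka* cn105 over *mdka* +/+) of the 6 identity genes and of every tested gene of each vascular list, 1 point per gene with its SE. Filled red points had an unadjusted *p* under 0.05 in edgeR's test and open points did not. The pan-endothelial genes spread from -0.44 to 0.88. All 10 tested Notch and arterial genes, of 16 listed, lie below 0 with TMM, the scaling plotted (8 of 10 do with total counts only). Of all 17879 tested genes 9156 lie below 0 with TMM.

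The whole tissue was sequenced, so the levels of other cell types were set beside these results. Summed CPM of cardiomyocyte markers (6 of 10 listed genes matched) lay between 31342 and 38328 in *mdka* cn105 and between 43443 and 47985 in *mdka* +/+ libraries, with 3 of 6 genes called, all lower. Thrombocyte markers (5 of 7 matched) summed to between 107 and 134 CPM against 48.3 to 71.1 CPM, with all 5 higher. Erythroid markers (4 of 7) summed to between 4120 and 9272 CPM against 2672 to 4740 CPM, which overlap, with all 4 genes called higher. Macrophage markers (5 of 9) were at 405 to 474 CPM against 217 to 338 CPM, and 4 of the 5 were called higher. Fibroblast markers (5 of 8) were at 3770 to 4707 CPM against 2433 to 3457 CPM, with 3 called higher. The collagen genes *col1a1a* and *col1a2* made up most of the fibroblast sum, and *pdgfra* and *lum* overlapped and were not called. Neutrophil markers (4 of 6) varied most within *mdka* +/+, from 28.8 CPM in replicate 4 to 177 CPM in replicate 1. They were at 51.6 to 56.8 CPM in *mdka* cn105, and 2 of the 4 genes were called lower. *mmp9*, not called, was the largest part of this sum in every library. *lyz*, called lower, did not overlap, with 4.13, 5.11 and 2.44 CPM in *mdka* cn105 against 42.9, 9.49 and 8.22 CPM. Epicardial, mural and T cell markers overlapped between genotypes. Beside these counts, 5.64% of all genes were called higher and 6.42% lower.

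Summed pan-endothelial markers, the 6 genes left out, were at 1941, 1796 and 1583 CPM in *mdka* cn105 and 1686, 1441 and 1411 CPM in *mdka* +/+ libraries, which overlap, and *vwf* made up the largest single part. Summed endocardial markers, most of it *spock3*, were at 1709, 1600 and 1452 CPM against 1926, 1749 and 1742 CPM. These endocardial sums did not overlap and were lower in every *mdka* cn105 library. Gene by gene the list was mixed, with 4 positive and 3 negative log2 fold changes and a median of 0.03. No matched marker of any of these lists was at 0 in a library, and endothelial and endocardial markers were detected in all 6 pools. Summed thrombocyte, macrophage and fibroblast markers were higher in *mdka* cn105, and summed cardiomyocyte and endocardial markers were lower. These sums separated by genotype, as did *tie1*, *pecam1* and *vcam1b*, and also *cdh5*, which was not called. The called erythroid and neutrophil genes did so only in part, since *hbaa1* and *npsn* overlapped between genotypes. The part of these markers and genes in the results for *cdh5*, *tie1*, *pecam1* and *vcam1b* was not tested.

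**Figure D4:**
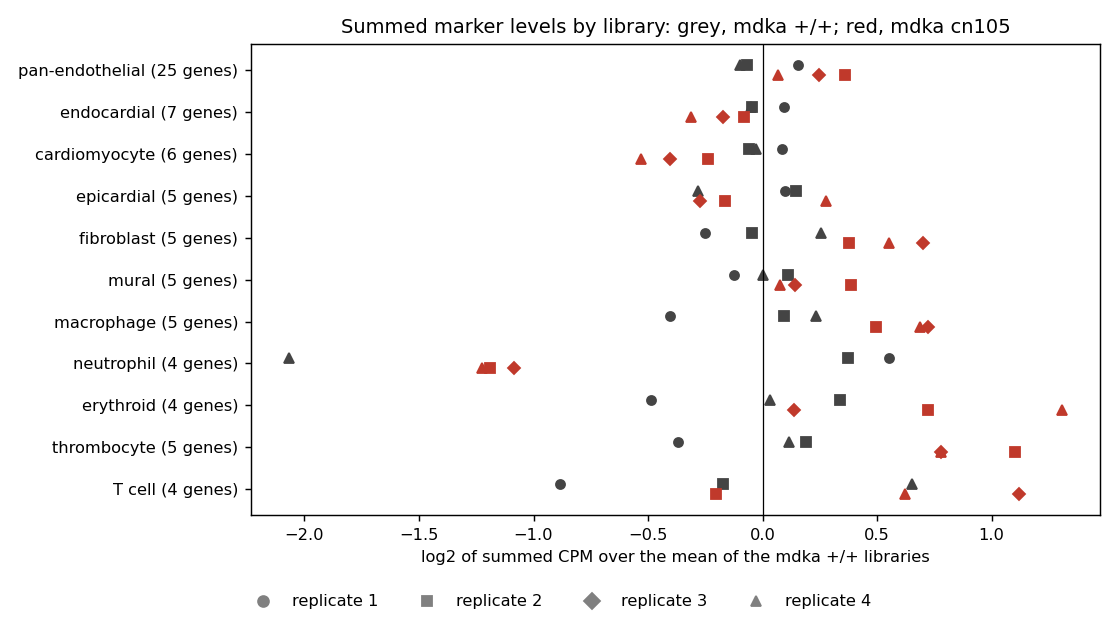
Summed CPM of the matched markers of each cell type in each library, as log2 of the ratio to the mean of the *mdka* +/+ libraries (horizontal axis). Grey is *mdka* +/+, red is *mdka* cn105, and symbols mark replicates. Summed cardiomyocyte and endocardial markers lie lower and summed thrombocyte, macrophage and fibroblast markers higher in all *mdka* cn105 libraries, while pan-endothelial markers overlap. Most of the endocardial sum is *spock3*.

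The genes most like each of the 6 were looked up by Pearson's *r* of log2 CPM over the 6 libraries, among 11088 other genes with a symbol and a mean of at least 5 CPM. With 6 libraries high values are common, since between 47 (*tek*) and 391 (*fli1a*) genes exceeded 0.9, so the names are a description. Several are human-style symbols, written here in lower case, that do not say which zebrafish paralog is meant. For *tie1* they were *ctdspl* (*r* = 0.988), *mcoln1* (0.986) and *elnb* (0.985), which encodes an elastin and had a log2 fold change of 1.36. For *vcam1b* they were *fat1* (0.996), *kiaa0513* (0.993) and si:dkey-183c2.5 (0.993), and for *pecam1* they were *clybl* (0.996), si:ch73-191k20.4 (0.990) and *ptp4a3b* (0.989). *cdh5* was most like *septin15* (0.975), *hpca* (0.975) and *ercc5* (0.973). Likewise *tek* was most like *fbxl2* (0.987), *pdlim5* (0.984) and *cerk* (0.982). *fli1a* was most like *ctrb.1* (0.998), which encodes a chymotrypsinogen of the pancreas, *sdf4* (0.997) and *ddx19a* (0.996), and none of these 3 was called.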

How the data were processed

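Stranded libraries were prepared by the authors from pools of apexes and sequenced with single reads, which were mapped to GRCz11 transcripts and quantified with RSEM. The deposited values are RSEM expected counts, not normalized (18.7% to 20.4% of values per library are not whole). Here they were rounded and tested with edgeR 4.0.16 (R 4.3.3): filterByExpr (minimum count 10, minimum total 15), TMM, two-sided quasi-likelihood test across all genes, Benjamini-Hochberg adjustment. SE was derived from each fold change and its F value.

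Symbols came from an identifier table covering 29201 of 32520 genes, matched exactly or, failing that, without regard to case where unique. Listed genes without a match were not analysed here. Members and lists were chosen with earlier results of these data known. Named genes are the 6 members, up to 3 called genes per direction of each vascular list, a few fixed markers, and the 3 genes most like each member. Marker lists are given as sums and counts. No label says that pools came from separate clutches, so *p*-values measure the spread between pools. The pipeline was tested on simulated data, drawn with the same dispersion for every gene. There edgeR gave an adjusted *p* under 0.05 to 31 of 193 tested genes that had been changed by a log2 of 1. DESeq2 1.42.0, limma-voom (limma 3.58.1), other scalings and filters, the replicate block and each library left out were tried. Python 3.11.15, scipy 1.17.1 and matplotlib 3.10.9 were also used.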

Additional observations from a re-analysis of the deposited data

How the results depend on the processing

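*vcam1b* kept its direction and its call in all 13 alternatives, and *tie1* in 12 of 13. Both occur in the study's list of genes with small *P*-values in the same contrast, so these counts are a description. Equal replicate numbers (2 and 4) were not shown to mark shared processing, since deviations of same-numbered pools correlated at 0.0886 and 0.00236. Replicates 1 and 3 each occur in 1 genotype only, so a fit with the replicate block compares the genotypes within replicates 2 and 4 alone. Its changes are therefore not the effect of adjusting all 6 pools. With the replicate block the log2 fold change of *tie1* was 0.41 and the gene was not called, so 2 members were. The block changed no other call among the 6, and it gave 0.32 for *fli1a*, not called. Outside the 6, the block ended the calls of *sele* (-0.58), *tjp1b* (-0.25), *sox18* (-0.24), *spock3* (-0.33), *notch2* (-0.24) and *ets2* (0.64), and gave calls for *nfatc1* (0.99), *itga4* (0.95) and 1 venous or lymphatic gene. Scaling by total counts only, which moved the median of all genes to 0.13, gave 0.36 for *cdh5* (then called), 0.11 for *tek* (reversed), -0.23 for *pecam1* (call lost) and 0.14 for *erg* (reversed). *erg* also turned to 0.06 with the block and to 0.00 (positive) with a filter of CPM above 1, and *angpt2b* to 0.46 with limma-voom. With single libraries left out, log2 fold changes ranged from -0.12 to 0.27 for *fli1a*, 0.15 to 0.30 for *cdh5*, 0.40 to 0.56 for *tie1*, -0.10 to 0.05 for *tek*, -0.44 to -0.27 for *pecam1*, -0.63 to -0.50 for *vcam1b*, -0.12 to 0.19 for *erg* and -0.07 to 0.41 for *klf2a*. Called members ranged from 2 to 3, and called pan-endothelial and endocardial genes from 3 to 7. DESeq2 gave 445 genes an adjusted *p* under 0.05, edgeR 1, limma-voom 2, edgeR with total counts only 19, without a filter 19 and with the block 4. The alternatives for the genes outside the 6 were added after seeing the data. TMM factors were 1.02 to 1.07 in the *mdka* cn105 libraries and 0.932 to 0.974 in the *mdka* +/+ libraries. Scaling by total counts only leaves these factors out, so it moves log2 fold changes upward across genes and not in single genes. The cause of the remaining shifts was not tested. For the 6 genes, spread between the 3 pools of each genotype exceeded counting error at the lowest count. Counting error was not worked out for the other genes.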
